A study of Mus musculus with 8 samples.

Results

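The genes described here are those of the integrin and laminin families, 37 of the 24028 genes in the deposited tables. They were matched by symbol, with earlier results of these data known, as 26 integrin genes (the α subunits Itga1 to Itga11, Itgav, Itga2b and the leukocyte forms, and the β subunits Itgb1 to Itgb8) and 11 laminin genes (5 α, 3 β and 3 γ chains). Integrins are receptors made of an α and a β subunit that tie the cell's actin or keratin filaments to the matrix or to other cells, and the pairing decides which ligand is bound. Laminins are trimers of an α, a β and a γ chain that polymerise into the basement membrane sheet, where the α chain carries the main sites for cell receptors. In normal prostate, laminins with the α3 and α5 chains lie under the epithelium and are held by α6β4 and α3β1 integrin on basal cells, while laminins with the α4 chain are typical of vessels and mesenchymal tissue.

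All values come from tumours of TRAMP-C2, an established mouse prostate adenocarcinoma line, grown in the dorsolateral prostate of male C57BL/6 hosts with intact immune systems. The aged hosts were 20 to 24 months old and the young hosts 4 months old, and 4 tumours of each age were sequenced. Per the labels, 1 M cells were injected into each of 19 aged and 20 young hosts, and tumours were taken after 30 to 45 days, but how 4 of each age were picked for sequencing is not stated there. The line and strain are the same in both groups, so host age is the only difference the labels give, and each tumour is named here by host age and mouse number. The libraries come from whole tumour pieces and mix RNA of the injected line with RNA of the host, so fewer cells of a type cannot be told apart from less RNA per cell.

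The libraries held 27.1 to 35.7 M fragments, at which 3 fragments correspond to 0.0840 to 0.111 CPM (the fragment count over the library total, scaled to 1 M). Epithelial markers were detected but low and uneven, and they cannot tell the injected line from host epithelium. The 7 epithelial markers summed to 141 to 670 CPM in aged and 63.7 to 454 CPM in young tumours. Krt8, a keratin of luminal epithelium, had 21.5 to 124 CPM and Epcam, an epithelial adhesion molecule, 0.700 to 69.4 CPM over the 8 tumours. Other tissue markers set some tumours apart. The 4 basal epithelial markers summed to 138 to 198 CPM in aged 47, aged 50 and young 40 and to 6.42 to 28.2 CPM in the other 5. The 6 leukocyte markers had sums of 484 and 509 CPM in aged 46 and aged 51 and of 878 to 1328 CPM in the other 6. The 6 skeletal muscle markers summed to 134 CPM in aged 51, against at most 37.7 CPM elsewhere, and the 6 fibroblast markers to 7644 CPM in aged 46, against 13233 to 24627 CPM elsewhere. Seminal vesicle markers had sums of 22951 and 37239 CPM in aged 50 and young 36 and of at most 18.9 CPM in the others. The 6 prostate secretory markers had sums of 11120, 4844 and 1251 CPM in young 37, aged 50 and young 36 and of 5.99 to 198 CPM in the others.

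Levels were compared between genes per transcript length, as the deposited FPKM. Itgb1, the β subunit shared by most matrix-binding integrins, was the most abundant member, with a median of 221 FPKM over the 8 tumours. Itgb5, the vitronectin-binding partner of αv, came next with 76.2 FPKM, followed by Itga5, the fibronectin receptor subunit, with 43.2 FPKM. The main laminin chains were Lamb1 with 30.3 FPKM and Lamc1 with 28.5 FPKM. These neighbours are not separable, as their ranges were 21.6 to 46.1 and 22.7 to 44.2 FPKM. Itgb2 (25.9 FPKM) and Itgam (25.2 FPKM), the 2 subunits of the leukocyte receptor Mac-1, lay next to each other, and Itga3, Lamb2 and Itga6 completed the 10 members with a median of at least 10 FPKM. A further 16 members had medians from 1 to under 10 FPKM and 11 had under 1 FPKM. The lowest were Itgad (0.138 FPKM), Itgb6 (0.108 FPKM) and Lama1 (0.0628 FPKM). Itgb1 was also the steadiest, with a highest value 1.21 times the lowest, while the scarce epithelial subunit Itgb6 varied 20.1 times and the laminin 332 chain Lamb3 18.2 times.

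**Figure D1:**
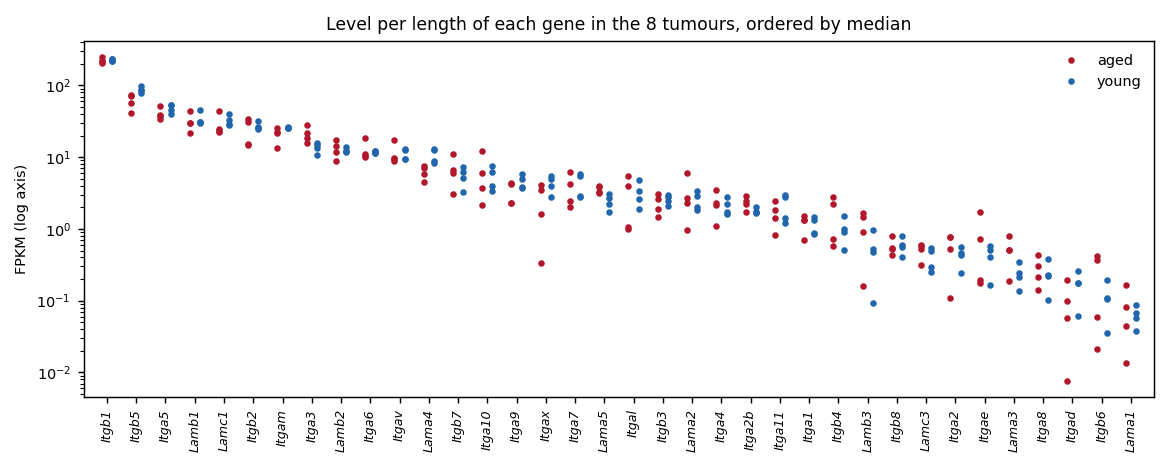
FPKM on a log axis of 36 of the 37 genes in the 4 aged (red) and 4 young (blue) tumours, ordered by the median of the 8. Itgb1 heads the order at a median of 221 FPKM, and the spread between tumours widens among the scarce genes on the right, such as Lamb3 and Itgb6.

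All 37 members passed the filter on low counts and were tested among 14575 genes. By edgeR's quasi-likelihood test 0 members passed a Benjamini-Hochberg adjusted p of 0.05, as did 0.00% of all genes, and the smallest adjusted p of a member was 0.923. DESeq2 called 0 members, against 0.295% of all genes, and limma voom called 0, against 0.0617%. At an unadjusted edgeR p of 0.05, 5 members passed, against 4.99% of all genes. Of these, Lama4 and Itgb5 had lower values in aged tumours, as did 2.66% of all genes at that p, and Lama5, Itga3 and Lama3 had higher values, as did 2.34%. The members were chosen with earlier results of these data known, so no test of this number was made. The median log2 fold change, aged minus young, was 0.02 over the 26 integrins and 0.26 over the 11 laminins, beside 0.03 over all genes tested. The laminin median was 0.08 without young 43 and 0.43 without young 36, and the integrin median ran from -0.04 to 0.09 with 1 tumour left out. Of the integrins 13 had higher and 13 lower values in aged tumours, and of the laminins 8 higher and 3 lower. Of all 14575 genes tested, 8060 had higher and 6515 (44.7%) lower values. The sign turned for 18 of the 37 members under at least 1 of 17 other settings or with tumours left out, but not for Lama4, Itgb5, Lama5, Itga3 or Lama3. The 4 aged and 4 young tumours did not overlap in CPM for 4 members, Lama4, Lama5, Itga3 and Itgb5, while 3.40% of all genes were parted in this way (1.95% lower and 1.45% higher in aged tumours).

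**Figure D2:**
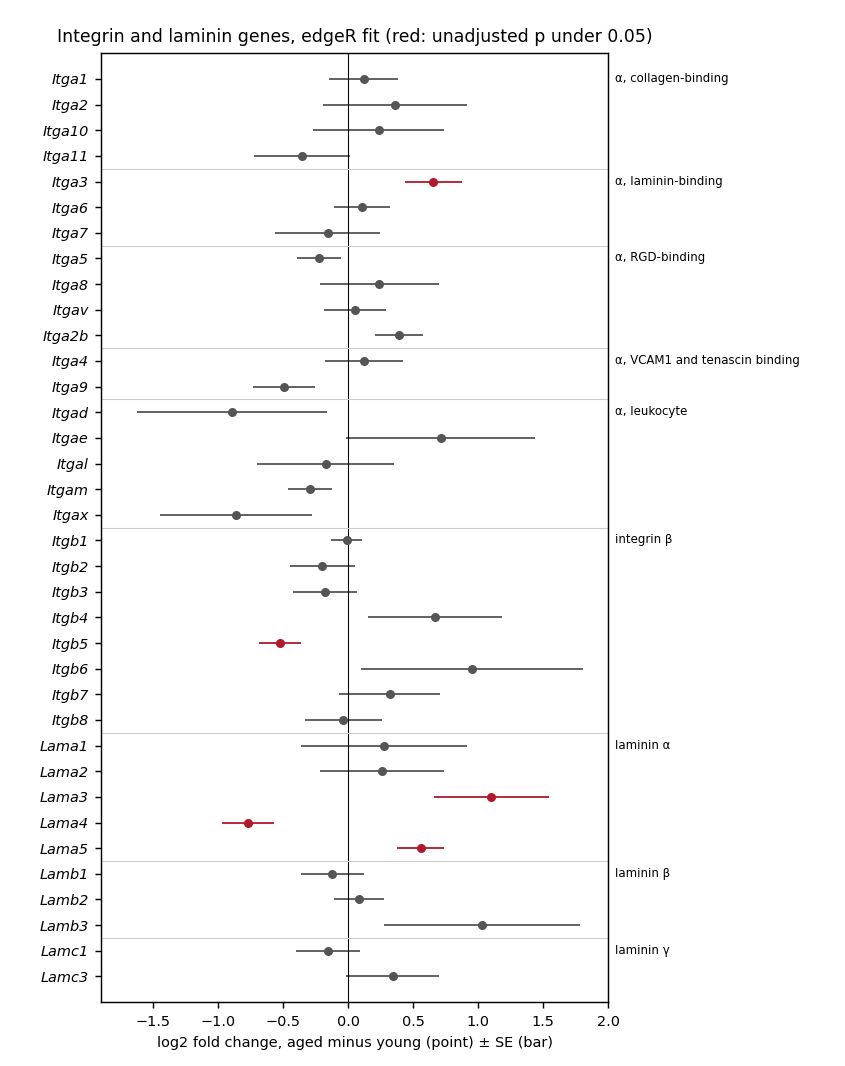
Log2 fold change of 36 of the 37 genes, aged minus young, from the edgeR fit (point) with its standard error (bar), grouped by role. The 5 genes in red have an unadjusted p under 0.05 and 0 of the 37 pass after adjustment.

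Among the laminin α chains, Lama4 and Lama5 stood on opposite sides. Lama4, the α4 chain of vessel and mesenchymal laminins (GRCm38 chromosome 10, 38965515 to 39110188), had 41.8, 66.3, 54.8 and 69.1 CPM in aged 46, 47, 50 and 51. In young 36, 37, 40 and 43 it had 77.5, 81.4, 119 and 122 CPM. Every aged tumour thus lay under every young one, with aged 46 lowest and young 40 and young 43 well above the other young tumours. Mean levels were 58.0 ± 12.4 CPM for aged and 99.9 ± 23.7 CPM for young hosts (SD over 4 tumours each). The log2 fold change was -0.77 ± 0.20 (SE), with an edgeR unadjusted p of 0.00392 and an adjusted p of 0.923, while DESeq2 gave an adjusted p of 0.0812. Without any single tumour the fold change stayed between -0.89 (without aged 51) and -0.66 (without aged 46).

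Lama4 was set beside the cells that typically make it. The 7 endothelial markers summed to 213 to 389 CPM in aged and 261 to 338 CPM in young tumours, and the 7 smooth muscle and mural markers to 123 to 1526 and 442 to 1057 CPM. The 6 fibroblast markers summed to 7644 to 17696 CPM in aged and 13586 to 24627 CPM in young tumours. All 3 sums overlapped between the host ages. All 3 were lowest in aged 46, which had the lowest Lama4. The fibroblast sum was highest in young 40, which had high Lama4. In young 43, with the highest Lama4, the fibroblast sum was 17300 CPM, under the 17696 CPM of aged 50. The endothelial sum was highest in aged 51 and the smooth muscle and mural sum in aged 50. In both of these tumours Lama4 was under every young tumour. The part of these cells in the Lama4 difference was not tested.

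Lama5, the α5 chain found under most adult epithelia (chromosome 2, 180176373 to 180225904), had 37.9, 44.2, 45.9 and 36.1 CPM in aged 46, 47, 50 and 51. The young tumours had 31.2, 25.5, 35.6 and 19.8 CPM in 36, 37, 40 and 43. The groups did not overlap, but aged 51 and young 40 differed by less than the spread within either group. The means were 41.0 ± 4.75 and 28.0 ± 6.89 CPM (SD, n = 4 each). Aged against young, the log2 fold change was 0.56 ± 0.18, with an edgeR unadjusted p of 0.0126 and an adjusted p of 0.923. Leaving out young 43, the lowest tumour, brought it to 0.42.

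Lama3, the α3 chain of laminin 332, which anchors basal epithelial cells, was scarce. It had 1.98, 5.44, 8.50 and 5.33 CPM in aged 46, 47, 50 and 51 and 2.57, 2.26, 3.64 and 1.43 CPM in young 36, 37, 40 and 43. Aged 46 lay among the young tumours, while the other 3 aged tumours lay above all of them. Its log2 fold change was 1.10 ± 0.44, with an edgeR unadjusted p of 0.0347 and an adjusted p of 0.923. It ranged from 0.81 (without aged 50) to 1.36 (without aged 46), and the unadjusted p was under 0.05 in 2 of the 8 fits that each leave out 1 tumour. An exon of an antisense transcript lies over exons of Lama3 on the other strand, and whether the counting used strand is not given in the sources used here.

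Lama2, the α2 chain of muscle and nerve laminins, had 62.3 CPM in aged 51 and 10.03 to 35.002 CPM in the other 7 tumours, and its log2 fold change of 0.26 ± 0.48 became -0.38 without aged 51. Aged 51 was also the tumour with the highest skeletal muscle sum. Lama1, a chain mostly of embryonic basement membranes, had 0.132 to 1.599 CPM.

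**Figure D3:**
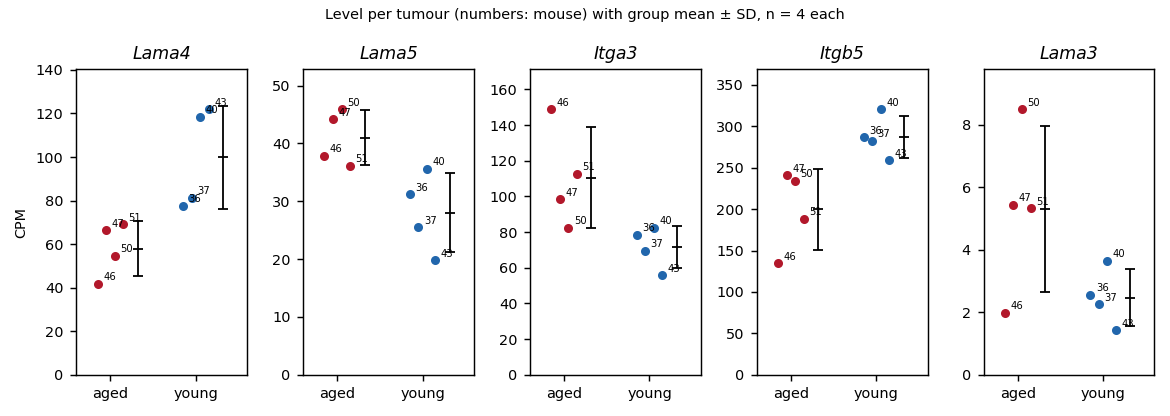
CPM per tumour of the 4 genes whose host ages did not overlap and of Lama3, with mouse numbers beside the points and the group mean ± SD (n = 4 each). Lama4 spans 41.8 to 69.1 CPM in aged and 77.5 to 122 CPM in young tumours, whereas Lama5 is the higher in aged tumours.

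The make-up of the α chains, as each chain's share of their summed FPKM, shows how far these opposite differences went. Lama4 took 43.4 to 51.5% of the α chain signal in aged tumours and 58.4 to 77.0% in young tumours, with no overlap. Lama5 took 18.4 to 36.6% in aged and 10.1 to 19.0% in young tumours, where aged 51, with a high share of Lama2 (35.1%), lay inside the young range. Lama3 took 2.09 to 5.93% in aged and 0.794 to 1.76% in young tumours, with no overlap. In CPM, however, Lama3 in aged 46 lay among the young tumours. The summed α chain level itself overlapped, with 8.99 FPKM in aged 46, 13.6 to 17.1 FPKM in the other aged tumours and 13.1 to 19.7 FPKM in young tumours. These shares rest on the same counts as the fold changes and on 1 deposited length per gene, so they are a description and carry no test.

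**Figure D4:**
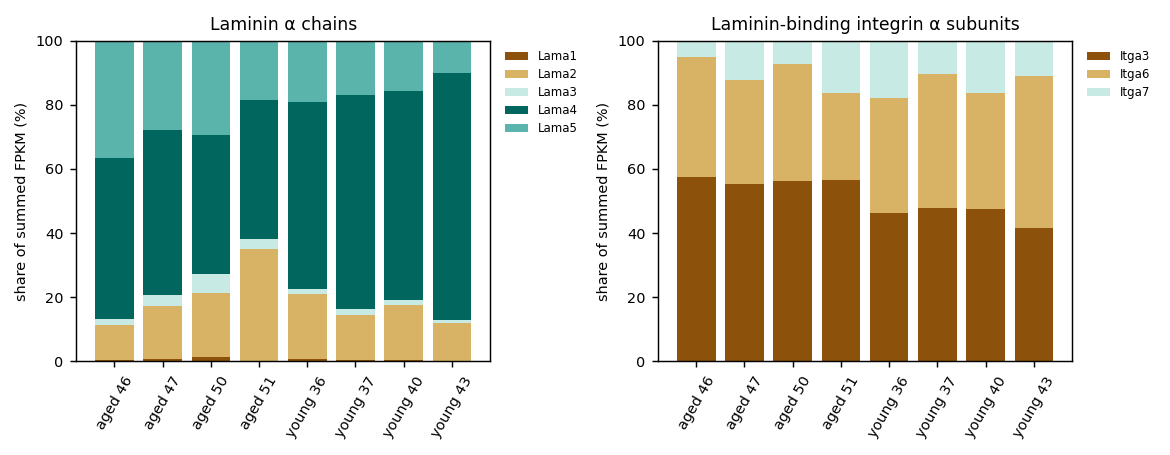
Share of summed FPKM held by each laminin α chain (left) and by each laminin-binding integrin α subunit (right) in every tumour. Lama4 (dark green) holds at most 51.5% in aged and at least 58.4% in young tumours, and Itga3 (brown, right) at least 55.2% in aged and at most 47.8% in young tumours.

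The β and γ chains that complete the trimers had smaller differences in their abundant members. Lamb1, the β1 chain, had 283, 283, 206 and 417 CPM in aged 46, 47, 50 and 51 and 286, 294, 297 and 442 CPM in young 36, 37, 40 and 43. In each group 1 tumour, aged 51 and young 43, stood well above the rest, and the log2 fold change was -0.12 ± 0.24. Lamc1, the γ1 chain present in most laminins, had 173, 189.6, 177 and 337 CPM in aged 46, 47, 50 and 51 and 215, 219.5, 308 and 253 CPM in the young tumours in order. Here the 3 other aged tumours lay under every young tumour and aged 51 above all of them. Its log2 fold change was -0.16 ± 0.24, with an edgeR unadjusted p of 0.538. Without aged 51 it was -0.47, with an edgeR unadjusted p of 0.00766, in a fit where 602 of 14901 genes had a p under 0.05. With any other single tumour left out, the edgeR unadjusted p of Lamc1 was 0.473 to 0.855. Lamb2, the β2 chain of vessels and synapses, had 0.08 ± 0.19, and Lamc3 had 0.34 ± 0.36.

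Lamb3, the β3 chain, joins Lama3 in laminin 332. It had 4.68, 7.57, 8.64 and 0.827 CPM in aged 46, 47, 50 and 51 and 2.704, 2.44, 4.99 and 0.476 CPM in young 36, 37, 40 and 43. Its lowest values were those of aged 51 and young 43, so the range within either group exceeded the difference between them, and the log2 fold change was 1.03 ± 0.75. Lama3 and Lamb3 were both highest in aged 50 and both lowest in young 43. They differed in aged 51, which was low in Lamb3 but above every young tumour in Lama3.

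Of the 3 laminin-binding integrin α subunits, Itga3, the α3 subunit of the receptor for laminins 332 and 511 (chromosome 11, 95044475 to 95076844), was higher in aged tumours. It had 149, 98.3, 82.6 and 113 CPM in aged 46, 47, 50 and 51 and 78.3, 69.4, 82.4 and 55.8 CPM in young 36, 37, 40 and 43. Aged 50 and young 40 were nearly equal, and after TMM scaling the groups overlapped. After that scaling 3 members were parted by host age (Lama4, Lama5 and Itgb5), against 3.66% of all genes. The means were 111 ± 28.3 and 71.5 ± 11.8 CPM (SD, n = 4 each). For Itga3 the log2 fold change was 0.65 ± 0.22, with an edgeR unadjusted p of 0.0162 and an adjusted p of 0.923, and without aged 46 it was 0.45. By limma voom it was 0.34.

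Itga6, the α6 subunit that pairs with β1 or with β4, had 154 CPM in aged 46 and 85.2 to 102 CPM in the other 7 tumours, with a log2 fold change of 0.10 ± 0.21. Itga7, the α7 subunit typical of muscle, had 8.67 to 26.6 CPM and a log2 fold change of -0.16 ± 0.41. As a share of their summed FPKM, Itga3 took 55.2 to 57.6% in aged and 41.6 to 47.8% in young tumours, with no overlap and a narrow spread within each group. Itga6 took 27.2 to 37.4% in aged and 35.7 to 47.5% in young tumours. Itgb4, the β4 subunit of hemidesmosomes, had 5.70, 22.4, 17.6 and 4.60 CPM in aged 46, 47, 50 and 51 and 7.87, 7.25, 12.2 and 4.00 CPM in young 36, 37, 40 and 43. Its log2 fold change was 0.66 ± 0.52, with the 2 lowest aged tumours among the young ones.

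The subunits that bind fibronectin, vitronectin and related ligands through the RGD motif included Itgb5, which with Lama4 makes up the members lower in aged tumours at an unadjusted edgeR p of 0.05. This β5 subunit (chromosome 16, 33829665 to 33949338), had 135, 241, 234 and 189 CPM in aged 46, 47, 50 and 51. It had 287, 282, 321 and 259 CPM in young 36, 37, 40 and 43, each above every aged tumour. The means were 199.7 ± 49.3 and 287 ± 25.5 CPM (SD, n = 4 each). For Itgb5 the log2 fold change was -0.52 ± 0.16, with an edgeR unadjusted p of 0.0105 and an adjusted p of 0.923. Aged 46 had the lowest Itgb5, and without it the fold change was -0.39. That tumour also had the lowest fibroblast, leukocyte, macrophage, T cell, B cell, dendritic cell, endothelial, smooth muscle and mural, Schwann cell and skeletal muscle sums. The part of any of these cells in the Itgb5 difference was not tested. Of the β subunits' summed FPKM, Itgb5 took 14.3 to 22.1% in aged and 22.8 to 26.1% in young tumours.

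The α partner of β5, Itgav, had 165 CPM in aged 51 and 86.7 to 126 CPM in the other 7 tumours. The log2 fold change of Itgav was 0.05 ± 0.24, but -0.25 without aged 51 and -0.15 by limma voom. Its sign beside that of Itgb5 is thus not settled. Itga5 had 227, 168, 149.9 and 174 CPM in aged 46, 47, 50 and 51 and 178, 237, 205 and 234 CPM in young 36, 37, 40 and 43. The groups overlapped through aged 46, and the log2 fold change was -0.23 ± 0.17. Its edgeR unadjusted p was 0.221. Without aged 46 the fold change was -0.39, with an edgeR unadjusted p of 0.0242, in a fit where 1021 of 14888 genes had a p under 0.05. With any other single tumour left out, the edgeR unadjusted p of Itga5 was 0.175 to 0.461. Itgb1, its partner, had 924, 936, 884 and 1068 CPM in aged 46, 47, 50 and 51 and 943, 947, 995 and 1004 CPM in young 36, 37, 40 and 43. This was the smallest spread among the 37 members, and the log2 fold change was -0.01 ± 0.12.

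Among the remaining RGD-binding subunits, Itga2b, the αIIb subunit of the platelet fibrinogen receptor, had 15.2, 19.8, 11.7 and 16.9 CPM in aged 46, 47, 50 and 51 and 11.9, 11.3, 14.0 and 11.8 CPM in young 36, 37, 40 and 43. Aged 50 lay inside the young range, and the log2 fold change was 0.39 ± 0.18. The 6 platelet and megakaryocyte markers, of which Itga2b is 1, had sums of 34.0 to 110 CPM in aged and 29.9 to 56.8 CPM in young tumours. Itgb3, its partner, had -0.18 ± 0.25, Itga8, typical of smooth muscle and mesenchyme, 0.24 ± 0.46, and Itgb8, which activates latent TGF-beta with αv, -0.04 ± 0.30. Itgb6, an epithelial subunit with the same activity, had 0.372, 2.66, 2.36 and 0.132 CPM in aged 46, 47, 50 and 51 and 0.693, 0.665, 1.21 and 0.224 CPM in young 36, 37, 40 and 43. Its log2 fold change of 0.95 ± 0.85 had an error almost as large as itself.

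Of the 4 collagen-binding α subunits, 0 passed an adjusted p of 0.05 by edgeR, DESeq2 or limma voom, and 0 an unadjusted p of 0.05 by edgeR. Itga10, best known from cartilage, was the most abundant of them per length, with 18.8, 30.2, 10.7 and 61.4 CPM in aged 46, 47, 50 and 51 and 19.8, 17.0, 37.8 and 31.4 CPM in young 36, 37, 40 and 43. Aged 51 was far above the other aged tumours, and the log2 fold change of 0.23 ± 0.50 became -0.41 without it. Itga11, the main collagen receptor of fibroblasts, had 4.06 to 11.95 CPM in aged and 6.00 to 14.5 CPM in young tumours, with a log2 fold change of -0.36 ± 0.37. Itga1, common on mesenchymal and endothelial cells, had 0.12 ± 0.27, and Itga2, found on epithelium and platelets, 0.36 ± 0.55.

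The pair of α subunits that bind VCAM1, fibronectin splice forms or tenascin differed in how far they stood apart by host age. Itga9, the α9 subunit, had 16.1, 30.8, 29.7 and 16.2 CPM in aged 46, 47, 50 and 51 and 35.2, 26.6, 41.3 and 27.5 CPM in young 36, 37, 40 and 43. Aged 46 and aged 51 lay under all other tumours, while aged 47 and aged 50 lay among the young ones. The log2 fold change was -0.50 ± 0.24, with an edgeR unadjusted p of 0.0665. Itga4, which lymphocytes and monocytes carry, had 12.3 to 39.0 CPM and a log2 fold change of 0.12 ± 0.30, which was -0.14 without aged 50. Itgb7, its lymphocyte partner in gut homing, had 30.1 CPM in aged 46, although that tumour had the lowest leukocyte sum, and 8.24 to 19.7 CPM in the other 7, with a log2 fold change of 0.32 ± 0.39.

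The leukocyte integrins varied within host age, for Itgb2 and Itgam chiefly among the aged tumours (SD 29.8 and 32.5 CPM, against 8.87 and 3.91 CPM in young tumours). Itgb2, the β subunit they share, had 44.5, 91.3, 100.1 and 44.4 CPM in aged 46, 47, 50 and 51 and 77.7, 75.3, 93.2 and 74.2 CPM in young 36, 37, 40 and 43. Aged 46 and aged 51 stood under the other 6 tumours, as they did in the leukocyte sum, and the log2 fold change was -0.20 ± 0.25. Itgal, the α subunit of the lymphocyte receptor LFA-1, repeated this with 5.67 and 5.33 CPM in aged 46 and aged 51, against 10.3 to 28.9 CPM elsewhere.

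Itgax, a subunit of dendritic cells and some macrophages, had 6.87, 15.2, 17.6 and 1.46 CPM in aged 46, 47, 50 and 51 and 21.1, 11.9, 23.8 and 17.0 CPM in young 36, 37, 40 and 43. The log2 fold change was -0.87 ± 0.59, and -0.51 without aged 51. Itgam, the α subunit of Mac-1 on macrophages and neutrophils, had 84.0, 159.9, 137 and 140.3 CPM in aged 46, 47, 50 and 51 and 166, 159.5, 157 and 158 CPM in young 36, 37, 40 and 43. The young tumours were close to each other, whereas aged 46 lay far below, and the log2 fold change was -0.30 ± 0.17. Aged 51 was low in Itgal and Itgax but not in Itgam, which made up 93.7% of the summed FPKM of the 5 leukocyte α subunits there, against 65.8 to 83.2% in the other 7. The 8 macrophage markers had sums of 1878 and 1262 CPM in aged 51 and aged 46 and of 1916 to 2731 CPM elsewhere. Itgae, the αE subunit of resident T cells and some dendritic cells, had 7.83 CPM in aged 50, the tumour with the highest T cell sum (84.2 CPM), and 0.756 to 3.31 CPM in the others. The log2 fold change of Itgae was 0.71 ± 0.73, that of Itgal -0.18 ± 0.53, and that of Itgad, a scarce subunit of some macrophages with 0.0331 to 1.11 CPM, -0.90 ± 0.73.

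Itgb4, Itgb6 and Lamb3, singled out after their values were seen, were highest in the tumours richest in basal epithelial markers, which were of both host ages. Aged 47, aged 50 and young 40, which had the highest sum of Krt5, Krt14, Krt15 and Trp63, also held the 3 highest values of Itgb4 (12.2 to 22.4 CPM, against 4.00 to 7.87 CPM elsewhere). They held the 3 highest values of Itgb6 (1.21 to 2.66 CPM, against 0.132 to 0.693 CPM) and of Lamb3 (4.99 to 8.64 CPM, against 0.476 to 4.68 CPM). Lama3 had 3.64 to 8.50 CPM in these 3, with aged 51 (5.33 CPM) among them. Itga3 and Itga6 did not follow this order, since aged 46 had their highest values beside a basal sum of 16.5 CPM. Itga2 did not either, as young 43 (2.35 CPM) lay above aged 50 (2.19 CPM) and young 40 (1.94 CPM), and Lama5 was higher in aged 46 and aged 51 than in young 40. Being highest in aged 47, aged 50 and young 40 was not particular to these members or to basal markers. The same 3 tumours had the highest T cell sums (52.5 to 84.2 CPM, against 14.6 to 39.4 CPM elsewhere). Their dendritic cell and Schwann cell sums were also the highest. They held the 3 highest values of Itgb2, Itgal, Itga4 and Itga8 too, on log2 CPM after TMM scaling. The part of basal epithelium, or of these other cells, in the Itgb4, Itgb6, Lamb3 and Lama3 values was not tested. In aged 51, the skeletal muscle sum of 134 CPM and an endothelial sum of 389 CPM, each the highest of the 8 tumours, stood beside the highest values of 8 members, Lama2, Lamb2, Lamc1, Itga7, Itga10, Itgav, Itgb1 and Itgb3, and the part of either in them was not tested. That number is not particular to aged 51, since aged 50 held the highest values of 10 members. Aged 51 also held the lowest values of 8 members. The share of all genes highest in each tumour was not counted.

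**Figure D5:**
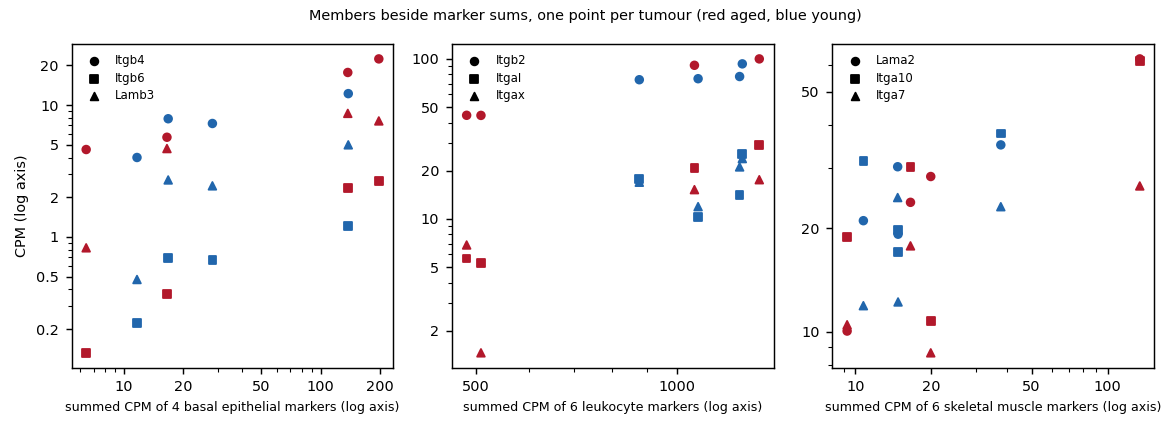
CPM of 3 members against the summed CPM of a marker list in each tumour (both axes log, red aged, blue young), for basal epithelial, leukocyte and skeletal muscle markers. Itgb4, Itgb6 and Lamb3 are highest in the 3 tumours at the right of the first panel, Itgb2, Itgal and Itgax lowest in aged 46 and aged 51, and Lama2 and Itga10 highest in aged 51.

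Genes that act with the members were taken from lists of the same kind, chosen by function. For comparison, 44.7% of all genes tested had lower values in aged tumours. Of 22 tested genes of the adhesion complex that couples integrins to actin, 11 had higher and 11 lower values, 0 passed an adjusted p of 0.05 by edgeR, DESeq2 or limma voom and 0 an unadjusted one by edgeR, and the median log2 fold change was -0.0021. The smallest p values belonged to Lims2, an adaptor (0.96 ± 0.47), Tln2, a talin that activates integrins (-0.39 ± 0.20), and Tns1, a tensin (0.48 ± 0.26). Of 12 laminin receptors and linkers other than integrins, 9 had higher values and 0 had an adjusted p under 0.05 by edgeR, DESeq2 or limma voom or an unadjusted one by edgeR, with a median log2 fold change of 0.10. The smallest p values there were those of Sgcb, a sarcoglycan of the dystroglycan complex (-0.33 ± 0.21), Bcam, a receptor for the laminin α5 chain (0.56 ± 0.44), and Sdc4, a syndecan (0.21 ± 0.18).

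Of 15 tested basement membrane components other than laminins (18 listed), 2 had an unadjusted edgeR p under 0.05, against 4.99% of all genes, and 0 an adjusted one by edgeR, DESeq2 or limma voom. Ntn4, a netrin that binds laminin γ1 and interrupts laminin polymers, had 5.33, 6.95, 5.98 and 10.03 CPM in aged 46, 47, 50 and 51 and 3.85, 3.51, 3.99 and 3.02 CPM in young 36, 37, 40 and 43, with no overlap. Its log2 fold change was 0.99 ± 0.27 and its edgeR unadjusted p 0.00490. Col18a1, a basement membrane collagen that yields endostatin, had 134 to 192 CPM in aged and 202 to 284 CPM in young tumours, with a log2 fold change of -0.56 ± 0.18. Col4a1, a chain of the collagen IV network, had -0.34 ± 0.23.

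Of 17 tested integrin ligands other than laminins (18 listed), 3 had an unadjusted p under 0.05, all with lower values in aged tumours, against 2.66% of all genes in that direction, and 0 an adjusted one by edgeR, DESeq2 or limma voom. Icam2, a ligand of LFA-1 on endothelium, had 4.00 to 11.5 CPM in aged and 10.1 to 13.5 CPM in young tumours, a log2 fold change of -0.68 ± 0.28. Tnc, a ligand of α9β1, had 131, 127, 94.8 and 106 CPM in aged 46, 47, 50 and 51 and 125, 197, 211 and 237 CPM in young 36, 37, 40 and 43. Young 36 lay among the aged tumours, and the log2 fold change was -0.72 ± 0.20. Fn1, the ligand of α5β1, had 2359 CPM in aged 51 and 1390 to 1547 CPM in the other aged tumours, against 2228 to 2787 CPM in young tumours, so that aged 51 alone reached the young range, and the log2 fold change was -0.54 ± 0.20.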

How the data were processed

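RNA of 8 tumours was read as 50 bp paired ends from 1 µg of total RNA each, per the labels. Upstream, bcl2fastq, TopHat2 2.0.12, Picard 2.7.1 and the build GRCm38 (mm10) are listed in the submitters' processing notes. Which program and annotation counted the fragments, and whether strand was used, is not given in the sources used here. Each deposited table gives a fragment count, a CPM (headed FPM) and an FPKM per Entrez gene, per the file headers. The authors' CPM equals the count over the tumour's total and their FPKM equals that CPM per kilobase of the deposited transcript length, as checked on every row.

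The deposited counts went into edgeR 4.0.16 (R 4.3.3; filterByExpr with a minimum count of 10 and a minimum total of 15, TMM, robust quasi-likelihood fit, host age as the only term, all 8 tumours), with Benjamini-Hochberg adjustment over all 14575 genes. The standard error is the fold change over the square root of F. Log2 CPM used a prior count of 2. CPM values printed are the deposited ones, without TMM scaling. The alternatives were DESeq2 1.42.0, sample-weighted voom in limma 3.58.1, changes of scaling, filter and prior count, and tumours left out. The fits were tested on simulated counts. Nothing says more of the replicates than a mouse number each, so p-values measure the spread between these tumours. RefSeq positions (GRCm38.p6) were found for all 37 members, and exons of 12 lie over exons of another gene in GENCODE. The overlap is on the same strand for Itga1, Itga10, Itgad and Itgam. It is on the other strand for Itga4, Itga7, Itga8, Itgad, Itgav, Itgb4, Lama2, Lama3 and Lamc3. How such fragments were counted is not known for any of them.

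The members, gene lists and naming rule were chosen with earlier results of these data known. Values in every tumour are given for members whose groups did not overlap, for the 6 integrins and 4 laminins with the smallest p and for the most abundant gene of each role. The values per tumour of Itgb2, Itgb4 and Itgb6 were added after they were seen. Of every other list the 3 genes with the smallest p were named. Intervals from depth cover counting error only. Values of 1 member are not reported here, although it is in the counts and medians over the families.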

Additional observations from a re-analysis of the deposited data

Results flagged for a closer look

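Among the members given in every tumour by the naming rule, which leaves out Itgb2, Itgb4 and Itgb6, 2 of 30 groups of 4 held a tumour set apart from the other 3 by more than Dixon's 95% critical value allows, on log2 CPM after TMM scaling. Chance alone sets apart about 1 group in 20. Lamb1 in young 43 stood at 8.77, against 8.16 to 8.22 in the other young tumours. Lamc1 in aged 51 stood at 8.46, against 7.41 to 7.51 in the other aged tumours. Young 43 also had the highest Lama4 of all tumours, and aged 51 the highest Lama2 and Lamb2.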

How the results depend on the processing

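No paired analysis was possible because the aged and young tumours share no replicate number. The count of 0 members past the adjusted threshold held under all 17 alternatives to the settings used (other scalings, filters, tests and a prior count, each tumour left out, and aged 50 with young 36 left out). By unadjusted p, 4 to 11 of the members passed, the 11 under limma voom, where 1758 of all 14575 genes passed, against 728 with edgeR. The median log2 fold change of the integrins ran from -0.04 to 0.09 with 1 tumour left out and from -0.08 to 0.02 otherwise, so its sign is not settled. That of the laminins stayed above 0, from 0.08 (without young 43) to 0.43 (without young 36). Lama4, Lama5, Itga3 and Itgb5 kept their direction and an unadjusted p under 0.05 in all 17, though Itga3 moved from 0.65 to 0.34 by limma voom. Over all 37 members the sign turned for 18 under at least 1 alternative (7 of them by limma voom and 7 without aged 50) and for 0 under the other scalings, filters, DESeq2 or prior count. Among members with values given in every tumour by the naming rule, it turned for Itgb1 (0.01 without aged 47, 0.042 without aged 50, 0.046 without aged 50 and young 36, and -0.10 at the lowest with 1 tumour left out), Lamb1 (0.03 without aged 50, 0.046 without young 43, and -0.36 at the lowest) and Itga10 (-0.41 without aged 51, and 0.52 at the highest). The cause was not tested. The stricter filter tested 34 of the 37. Depth limits the scarce members most, as Itgad had 1 fragment in aged 51.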
